A study of Mus musculus with 20 samples.

Results

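A set of 7 genes encoding alpha, beta and gamma subunits of the GABA-A receptor were followed in dorsal root ganglia (DRG) of mouse embryos: Gabra2, Gabra3, Gabra5, Gabrb1, Gabrb2, Gabrg1 and Gabrg3. They were matched by symbol to Ensembl identifiers, and all 7 were found among the 37620 genes of the expression table. Whole ganglia came from C57Bl6 embryos at E18.5 (late gestation), with no transgene or treatment in any group; litters were not given. Each of 10 embryos gave a lumbar library (ganglia L4 and L5) and a sacral library (ganglia L6 and S1), so the 20 libraries formed 4 groups of 5: male lumbar, male sacral, female lumbar and female sacral. The comparison asked which receptor subunits differed between ganglia that serve the hindlimb and ganglia that also hold the sensory neurons of pelvic organs.

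GABA-A receptors are chloride channels built from 5 subunits arranged around a pore, most often alpha, beta and gamma subunits together. GABA binds where beta and alpha subunits meet, and benzodiazepines bind where alpha and gamma subunits meet, so the alpha and gamma genes a cell uses set much of the receptor's pharmacology. Sensory neurons keep a high chloride concentration, so GABA depolarizes them. The receptors on their central terminals take part in presynaptic inhibition.

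The 20 libraries held between 19606265 and 39678967 assigned reads, as recovered from the values, of which the mitochondrial rRNA genes took 17.83 to 61.05%. Both libraries of embryo M5 (61.05% lumbar, 49.49% sacral) and of embryo F7 (48.84% lumbar, 44.73% sacral) had the highest shares, and low values for several subunit genes, so results are given with and without these embryos. Neuronal genes were present in every library, by the summed RPKM (reads scaled to exon length and library size) of marker lists. The 12 pan-neuronal genes held 1350 to 3260 RPKM in lumbar and 577 to 2100 RPKM in sacral libraries. In the same order, 10 genes of large myelinated sensory neurons held 116 to 247 and 100 to 171 RPKM. For 12 genes of small nociceptive sensory neurons the sums were 302 to 565 and 172 to 504 RPKM. RNA from whole ganglia does not separate fewer cells of a type from less RNA per cell.

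The 7 genes lie on 4 chromosomes (mm9). On chromosome 5, Gabrg1 (chr5:71142286-71233856, minus strand) is followed by Gabra2 (chr5:71352296-71487088, minus) and Gabrb1 (chr5:72091171-72529628, plus). On chromosome 7, Gabrg3 (chr7:63971835-64642558, minus) lies beside Gabra5 (chr7:64663060-64765379, minus). Gabrb2 (chr11:42233259-42446092, plus) is on chromosome 11 and Gabra3 (chrX:69678020-69902187, minus) on the X chromosome. The genes are related, and their exons share short identical stretches, so the longest of these are shown for Gabra3 with Gabra5, the longest of all, and for Gabrg1 with Gabrg3, the gamma pair. Capitals mark the identical bases, lower case the coding sequence 20 bases to each side. Gabra3 and Gabra5 shared at most 24 bases (chrX:69696905-69696968 and chr7:64673652-64673715, both minus strand).

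Gabra3: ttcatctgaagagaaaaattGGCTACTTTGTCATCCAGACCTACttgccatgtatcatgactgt
Gabra5: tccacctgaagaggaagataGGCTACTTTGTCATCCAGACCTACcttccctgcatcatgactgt

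Gabrg1 and Gabrg3 shared at most 17 bases (chr5:71173585-71173641 and chr7:64240413-64240469, both minus strand).

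Gabrg1: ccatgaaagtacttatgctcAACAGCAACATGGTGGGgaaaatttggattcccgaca
Gabrg3: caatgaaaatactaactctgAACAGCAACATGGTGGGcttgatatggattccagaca

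The longest run shared by Gabra2 with Gabra3, by Gabra2 with Gabra5 and by Gabrb1 with Gabrb2 was 20 bases each. The run of Gabrb1 and Gabrb2 was mostly A, in windows that are not all coding sequence, unlike those of the alpha pairs. Uniquely mapping reads were counted. One overlap with another gene was found: 118 exonic bases of Gabra5 are also exonic in Gm9962 on the opposite strand, which held 480 reads over the 20 libraries against 6688 for Gabra5. The strand setting of the counting is not given in the sources used here.

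Receptor subunit genes were expressed at low to moderate levels. In lumbar DRG the mean levels of Gabra5 (2.32 log2 RPKM), Gabra3 (2.18), Gabrg1 (1.97) and Gabra2 (1.94) stood together. The mean gap between neighbours in this order was 0.15, 0.21 and 0.03, less than the SD of the gap in each case. Gabrg3 followed at 0.56, below Gabra2 in 10 of 10 lumbar libraries, and Gabrb1 (-0.13) and Gabrb2 (-0.48) were lowest. In sacral DRG the order was different. Gabra3 led at 2.90, above Gabra5 (1.69) in 10 of 10 libraries, followed by Gabra2 (1.24), Gabrg3 (1.09), Gabrg1 (0.23), Gabrb1 (-0.39) and Gabrb2 (-0.42). Gabra2 and Gabrg3 were separated by 0.15 ± 0.39 (SD, n = 10) in sacral DRG, and Gabrb1 and Gabrb2 by 0.02 ± 0.57 (SD, n = 10).

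Of the 6 subunit genes that reached the expression filter (a mean of 1 RPKM in at least 1 group), 3 were upregulated in lumbar DRG (Gabrg1, Gabra2 and Gabra5) and 1 was upregulated in sacral DRG (Gabra3), at an adjusted p of at most 0.05 in limma with the embryo as block. Across all 14529 genes tested, 6.73% were called, 4.03% lower and 2.70% higher in sacral DRG. The median difference of the 6 genes was -0.45 (sacral minus lumbar, log2 RPKM), against -0.05 over all tested genes. Gabrg3, Gabrb1 and Gabrb2 did not pass.

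**Figure D1:**
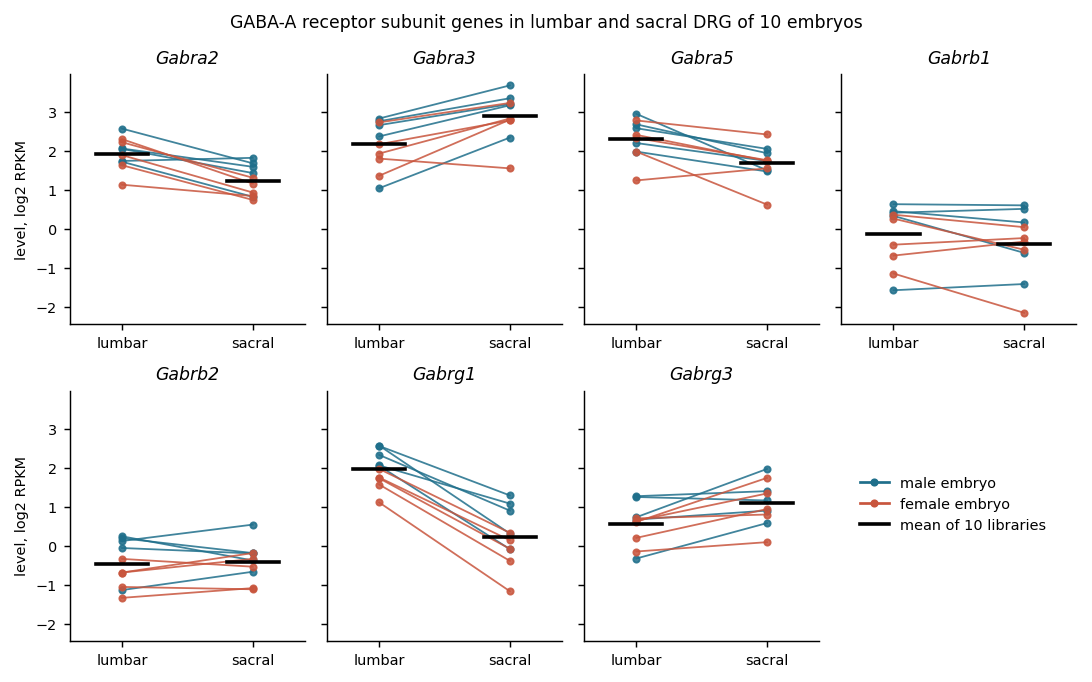
Level of each subunit gene (vertical axis, log2 RPKM) in the lumbar and sacral library of each embryo; lines join the libraries of 1 embryo, blue for males and red for females, and black bars are means of 10 libraries. Gabrg1 falls along all 10 lines, Gabra3 rises along 9 and Gabra2 and Gabra5 fall along 9 each.

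Gabrg1 encodes a gamma subunit that lends receptors a weak response to many benzodiazepines. In lumbar libraries its level was 2.16 RPKM at the lowest, 4.02 at the median and 5.96 at the highest. The sacral libraries held 0.445, 1.17 and 2.44 RPKM. The ranges overlapped, but 9 of 10 sacral libraries lay below every lumbar library, and the sacral library of M1 alone reached into the lumbar range. Gabrg1 was therefore not among the 0.138% of all tested genes with no overlap between levels. The share of genes with 9 of 10 libraries apart was not counted. The difference was -1.74 ± 0.15 log2 units (SE; 95% interval -2.06 to -1.42), a 3.34-fold lower level in sacral DRG (adjusted p = 8.61e-07, limma). Every embryo showed it, from -0.99 in M8 to -2.28 in F7, and 2.85% of all tested genes had 1 direction in all 10 embryos. By p-value Gabrg1 ranked 6 among the 14529 genes, and 11 genes had a more negative difference. These values rest on 251 to 813 reads per lumbar library and 49 to 363 per sacral library. The gene was called in males (-1.62 ± 0.22 SE, adjusted p = 0.000623, limma) and in females (-1.86 ± 0.22 SE, adjusted p = 9.66e-05, limma). Without M5 and F7 the difference was -1.62 (adjusted p = 7.87e-06, limma).

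Gabrg3, the other gamma subunit gene among the 7, leaned the opposite way. Its lumbar libraries held 0.798, 1.58 and 2.42 RPKM (lowest, median, highest) and its sacral libraries 1.06, 2.08 and 3.91. For Gabrg3, 4 sacral libraries lay above every lumbar one, and the level was higher in sacral DRG in 9 of 10 embryos. The difference was 0.53 ± 0.18 (SE), with a 95% interval of 0.15 to 0.91 and an adjusted p of 0.0810 (limma), so it was not called. The gene passed the threshold with sample weights (adjusted p = 0.0308, limma) and with the mitochondrial rRNA share as a covariate (adjusted p = 0.0189, limma). With sample weights many more of all tested genes were called too, as the last section gives. Without M5 and F7 the difference was 0.52 (adjusted p = 0.125, limma).

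Gabra3 encodes an alpha subunit found in benzodiazepine-sensitive receptors. Its lumbar libraries held 2.07, 4.86 and 7.17 RPKM and its sacral libraries 2.95, 8.11 and 12.9. For Gabra3, 5 sacral libraries stood above every lumbar library, while the sacral library of F7 was the lowest of its level. The difference was 0.73 ± 0.19 (SE), a 1.66-fold higher level in sacral DRG (95% interval 1.26 to 2.17; adjusted p = 0.0258, limma). It was higher in 9 of 10 embryos, the exception being F7 at -0.25. Without the embryo block the adjusted p was 0.162 (limma), and leaving out M1, F9 or F10 gave 0.0574, 0.0590 and 0.0638 (limma). Without M5 and F7 the difference was 0.78 (adjusted p = 0.0108, limma).

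Gabra2 and Gabra5, both alpha subunit genes, were upregulated in lumbar DRG. Alpha 2 subunits are known for synaptic receptors and alpha 5 subunits for extrasynaptic ones. Gabra2 levels were 2.20, 3.96 and 5.96 RPKM in lumbar and 1.69, 2.38 and 3.56 RPKM in sacral libraries. For Gabra2, 6 lumbar libraries exceeded every sacral library. The Gabra2 difference was -0.70 ± 0.13 (SE; 1.62-fold lower in sacral DRG, 95% interval 1.35 to 1.95; adjusted p = 0.00333, limma), with M8 (0.08) the 1 embryo of 10 that was not lower. Without M5 and F7 it was -0.65 (adjusted p = 0.0426, limma). Gabra5 levels were 2.38, 5.20 and 7.76 RPKM in lumbar and 1.55, 3.36 and 5.38 RPKM in sacral libraries, with 4 lumbar libraries above every sacral one. The Gabra5 difference was -0.63 ± 0.16 (SE; 1.55-fold lower, 95% interval 1.23 to 1.96; adjusted p = 0.0256, limma), and F8 was the 1 embryo of 10 with a higher sacral level (0.31). The Gabra5 call was the least stable of the 4. It was lost without the embryo block (adjusted p = 0.138, limma), without M5 and F7 (-0.56, adjusted p = 0.119, limma) and on leaving out any 1 of M5, M7, F3, F7 or F10 (adjusted p between 0.0543 and 0.0700, limma).

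The beta subunit genes of the 7 did not differ detectably. Gabrb1 had 0.336, 1.24 and 1.56 RPKM in lumbar and 0.225, 0.826 and 1.53 RPKM in sacral libraries. The libraries of M5 and F7 were the lowest at both levels, on 16 to 34 reads each. The Gabrb1 difference was -0.26 with a 95% interval of -0.83 to 0.30 (adjusted p = 0.572, limma). Gabrb2 stayed under 1 RPKM in every group mean and was tested in a wider fit of 22130 genes, of which 3.06% were called. It had 0.394, 0.707 and 1.18 RPKM in lumbar and 0.459, 0.781 and 1.45 RPKM in sacral libraries. The Gabrb2 difference was 0.06 with a 95% interval of -0.34 to 0.46 (adjusted p = 0.893, limma). Without M5 and F7 the differences were -0.22 for Gabrb1 (adjusted p = 0.609, limma) and 0.025 for Gabrb2 (adjusted p = 0.962, limma). The intervals over all embryos leave room for changes of up to 1.78-fold lower for Gabrb1 and 1.37-fold higher for Gabrb2 in sacral DRG.

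**Figure D2:**
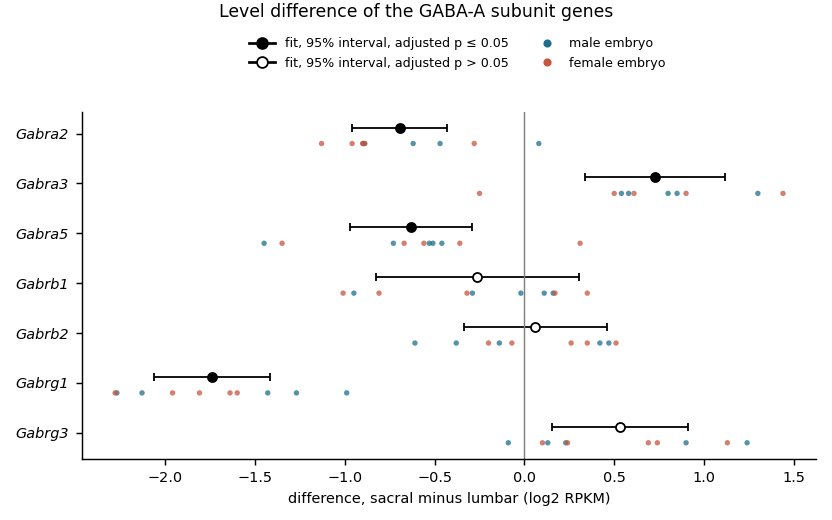
Sacral minus lumbar difference (horizontal axis, log2 RPKM) of the 7 subunit genes; black circles are limma estimates with 95% intervals, filled where the adjusted p was at most 0.05, and small points are single embryos. Gabrg1 stands furthest from 0, at -1.74, and Gabra3 and Gabrg3 are the genes whose intervals lie above 0.

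Of 9 other GABA-A subunit genes examined, none reached the expression filter. Gabra4, Gabrd, Gabre, Gabrq, Gabrr1 and Gabrr2 could be tested in the wider fit and none passed. Gabra4, an alpha subunit gene, had a median of 0.520 RPKM in lumbar and 0.329 RPKM in sacral libraries, with a difference of -0.46 ± 0.23 (SE; adjusted p = 0.282, limma). Gabrr2 had the smallest adjusted p of these (0.0829, limma) with 0 to 32 reads per library. Gabrp and Gabrr3 had too few reads to be tested, and Gabra6 had none in any library.

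Shares among the genes reported here do not move with the scaling of libraries. Each share is 1 gene's RPKM as a percent of the summed RPKM of the genes of its class that are named beside it, not of all receptor transcripts, and no test was made because such shares are tied to each other. Among Gabra2, Gabra3, Gabra4 and Gabra5, Gabra3 made up 32.6% ± 6.3 (SD, n = 10) in lumbar and 55.2% ± 6.3 (SD, n = 10) in sacral DRG, and was higher in sacral DRG in 10 of 10 embryos. The lumbar range of 21.1 to 40.4% and the sacral range of 45.7 to 67.2% did not overlap. Gabra5 went from 35.8 to 24.2% and Gabra2 from 27.5 to 17.7%, each lower in 10 of 10 embryos. In M8 the Gabra2 share was almost level, at 19.6% in lumbar and 19.5% in sacral DRG. Gabra4 held 4.06 and 2.98%.

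Of the summed level of Gabrg1 and Gabrg3, Gabrg1 made up 72.2% ± 6.2 (SD, n = 10) in lumbar and 36.2% ± 11.2 (SD, n = 10) in sacral DRG, with ranges of 63.8 to 83.8% and 22.1 to 56.6% that did not overlap. Gabrg1 exceeded Gabrg3 in every lumbar library, by 0.81 to 2.37 log2 units, and was below Gabrg3 in 9 of 10 sacral libraries. The log2 ratio of Gabrg3 to Gabrg1 changed by 2.27 ± 0.82 (SD, n = 10) from lumbar to sacral DRG, that of Gabra3 to Gabra2 by 1.42 ± 0.55 (SD, n = 10) and that of Gabra3 to Gabra5 by 1.36 ± 0.40 (SD, n = 10), each upward in 10 of 10 embryos. These pairs were chosen after their values were seen. The ratios and the shares are built from the single-gene levels given above and are no separate result. How often other sets of genes show such a separation was not counted. Of the summed level of Gabrb1 and Gabrb2, Gabrb1 held 55.7% ± 10.3 (SD, n = 10) in lumbar and 50.5% ± 9.5 (SD, n = 10) in sacral DRG, and was lower in 7 of 10 embryos.

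**Figure D3:**
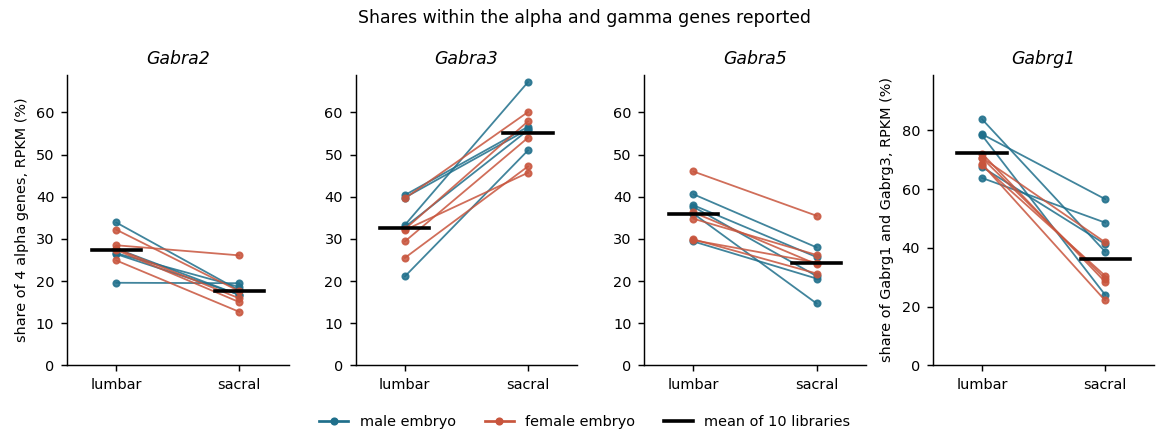
Share (vertical axis, percent) of Gabra2, Gabra3 and Gabra5 in the summed RPKM of these genes and Gabra4, and of Gabrg1 in the summed RPKM of Gabrg1 and Gabrg3, in the lumbar and sacral library of each embryo; black bars are means of 10 libraries. The Gabra3 share rises and the Gabra2, Gabra5 and Gabrg1 shares fall in all 10 embryos, though the Gabra2 share of M8 is almost level.

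The differences of neighbouring genes, called or not, can be read along the chromosomes. On chromosome 5 the differences were -1.74 for Gabrg1, -0.70 for Gabra2, -0.46 for Gabra4 (wider fit) and -0.26 for Gabrb1. On chromosome 7 they were 0.53 for Gabrg3 and -0.63 for Gabra5. Over the 20 libraries, in which each library's depth and cell make-up bears on both genes of a pair, Gabra3 and Gabrg3 had a Pearson r of 0.885, Gabra2 and Gabrg1 of 0.834, and Gabra5 and Gabrg1 of 0.775, whereas Gabrg1 and Gabrg3 had -0.162. These correlations are descriptions.

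The region before the transcription start is shown for Gabrg1 and Gabra2, neighbours that were both lower in sacral DRG, and for Gabra3, which was higher (250 bases each, RefSeq, GRCm38.p6, all on the minus strand). Capitals mark matches, on either strand, to the TATA box TATAAA, the GC box GGGCGG, the homeodomain core TAATTA, the cyclic AMP response element TGACGTCA and the E-box CAGCTG, a set chosen with the results known. All 7 genes matched an entry of the promoter table, and Gabra3 has a second entry that is not shown.

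Gabrg1 (chr5:70842618-70842867): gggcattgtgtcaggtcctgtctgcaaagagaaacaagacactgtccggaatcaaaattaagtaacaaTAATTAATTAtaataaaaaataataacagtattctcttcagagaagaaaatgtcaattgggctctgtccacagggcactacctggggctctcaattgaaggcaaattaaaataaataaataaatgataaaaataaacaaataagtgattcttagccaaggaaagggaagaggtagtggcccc
Gabra2 (chr5:71095850-71096099): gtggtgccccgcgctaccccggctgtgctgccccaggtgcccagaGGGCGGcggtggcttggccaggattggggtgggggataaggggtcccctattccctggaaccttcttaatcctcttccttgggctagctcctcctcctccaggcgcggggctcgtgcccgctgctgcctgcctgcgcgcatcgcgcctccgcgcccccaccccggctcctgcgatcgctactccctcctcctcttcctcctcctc
Gabra3 (chrX:72656920-72657169): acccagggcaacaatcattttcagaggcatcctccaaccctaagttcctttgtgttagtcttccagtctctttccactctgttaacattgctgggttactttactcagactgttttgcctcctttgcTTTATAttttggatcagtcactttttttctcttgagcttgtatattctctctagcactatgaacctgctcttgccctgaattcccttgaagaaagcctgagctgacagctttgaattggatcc

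The Gabrg1 sequence was AT-rich, with 35.6% G and C and 1 CpG, and held 2 overlapping TAATTA matches, a sequence present in 4.84% of the 32851 promoters of the table. That of Gabra2 had 70.0% G and C, 18 CpGs and 1 GGGCGG, found in 32.7% of promoters. That of Gabra3 had 42.4% G and C, no CpG and 1 TATAAA, found in 12.4%. The median promoter had 52.4% G and C. The letters show no more than their presence in these windows.

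Sex was compared at each level. No subunit gene was called between females and males in lumbar DRG, where 0.33% of all genes were, or in sacral DRG, where 1.01% were. Gabrg1 was nearest, at 1.72 ± 0.62 RPKM in male and 0.903 ± 0.314 RPKM in female sacral DRG (SD, n = 5 each), a difference of -0.93 ± 0.27 log2 units (SE, female minus male; adjusted p = 0.1003, limma). In lumbar DRG it had 5.03 ± 0.88 RPKM in males and 3.14 ± 0.64 RPKM in females (SD, n = 5 each), a difference of -0.69 ± 0.27 (SE; adjusted p = 0.471, limma). The level difference was not found to depend on sex for any of the 7 (interaction adjusted p at least 0.995, limma). Limma called 0 of 14529 genes for the interaction, and 470 had an unadjusted p under 0.05.

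Cell type markers moved in the same libraries. Their counts are to be read against the 4.03% of all tested genes called lower and the 2.7% called higher in sacral DRG. Of 12 Schwann cell and satellite glia genes, 6 were lower in sacral DRG, among them Mbp (-0.58, adjusted p = 0.000196, limma), and their summed level was 420 to 594 RPKM in lumbar and 267 to 435 RPKM in sacral libraries, lower in 10 of 10 embryos. Of 12 pan-neuronal genes, 3 were lower, namely Snap25, Nefl and Nefm. Of 12 fibroblast and meninges genes, 6 were higher, with a summed level of 241 to 531 RPKM in lumbar and 325 to 702 RPKM in sacral libraries. Of 10 genes of large myelinated sensory neurons, 4 were lower and 1 higher, and of 12 genes of small nociceptive neurons, 2 were lower and 1 higher. Endothelial genes gave 2 higher of 5 tested and cartilage genes 1 higher of 3 tested. No call was made among the 9 skeletal muscle, 6 macrophage and 4 red cell genes tested, or for the 1 autonomic neuron gene of 7 that was tested; the summed autonomic level was higher in sacral DRG in 8 of 10 embryos. Of 12 spinal cord genes only 2 were tested, Aqp4 and Slc1a2, of which none was called higher and 1 was called lower. Gad1, Slc32a1, Mnx1, Chat, Pax2, Lbx1 and Olig2 were at 0 in at least 1 library. The part of these shifts in the subunit differences was not tested as such, but libraries were also centred on the pan-neuronal list and on the Schwann cell and satellite glia list. Centred on the pan-neuronal genes, which moved the median of all genes to 0.30, Gabrg1 (-1.39, adjusted p = 1.65e-05) and Gabra3 (1.08, adjusted p = 1.27e-06) stayed called, Gabrg3 was called (0.88, adjusted p = 0.00147) and Gabra2 (-0.34, adjusted p = 0.104) and Gabra5 (-0.28, adjusted p = 0.106) were not. Centred on the glial genes, which moved the median to 0.32, Gabrg1 was at -1.37 (adjusted p = 0.000319) and Gabra3 at 1.10 (adjusted p = 0.00132), Gabrg3 was called (0.90, adjusted p = 0.00749), and Gabra2 (-0.33, adjusted p = 0.165) and Gabra5 (-0.26, adjusted p = 0.299) again did not pass. Both centrings also called many more of all tested genes higher, as the last section gives.

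**Figure D4:**
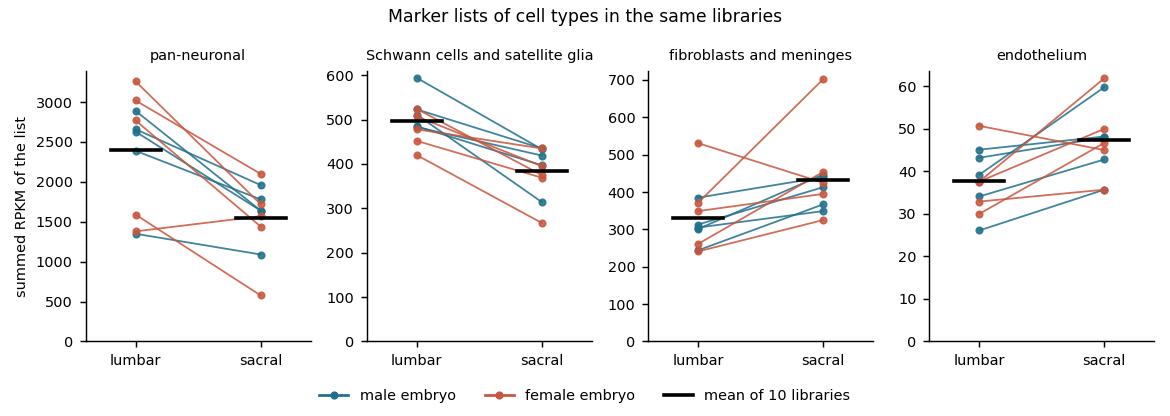
Summed RPKM (vertical axis, linear, from 0) of 4 marker lists in the lumbar and sacral library of each embryo; black bars are means of 10 libraries. Glial sums fall in all 10 embryos and neuronal sums in 9, and fibroblast and endothelial sums rise in 9 each. A sum follows the most abundant genes of its list, and single genes can go the other way. The median difference of the tested genes was -0.37 for glial, -0.31 for neuronal, 0.61 for fibroblast and 0.006 for endothelial lists (sacral minus lumbar, log2 RPKM).

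Genes that act around the receptor were taken from lists, to be read against the 6.73% called over all genes. Of 21 anchoring and trafficking genes, 20 were tested and 1 was called, Trak2, a kinesin adaptor (-0.40 ± 0.07 SE, adjusted p = 0.00172, limma; lower in 10 of 10 embryos). Gphn, which encodes the scaffold gephyrin, was at -0.25 (adjusted p = 0.188, limma). Of 6 GABA-B receptor genes, 1 was called, Kctd12, which encodes an auxiliary subunit (0.61 ± 0.11 SE, adjusted p = 0.00363, limma; higher in 10 of 10 embryos). Dbi, whose peptide binds the benzodiazepine site, was lower (-0.52 ± 0.12 SE, adjusted p = 0.0163, limma) and was the 1 call among 4 tested benzodiazepine-site and neurosteroid genes. Of 6 tested genes for GABA synthesis, uptake and breakdown none passed, the smallest p being that of the GABA transporter gene Slc6a13 (0.64 ± 0.21 SE, adjusted p = 0.0749, limma). Of 4 tested cation-chloride cotransporter genes none passed, the smallest p being that of Slc12a7 (0.37 ± 0.12 SE, adjusted p = 0.0579, limma).

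For each of the 6 filtered genes the 3 tested genes with the highest Pearson r over the 20 libraries were found. The level difference is part of this r, so the choice itself favours genes with the same direction, and a shared direction is no separate result. Gabrg1 was most like Gm7271 (0.946), Serpina3g (0.916) and Lhfpl1 (0.906), each of which was also lower in sacral DRG. Gabra2 was most like Grm3 (0.909), Fam19a1 (0.890) and Anxa2 (0.879), and Gabra5 most like Nipsnap1 (0.908), Vsnl1 (0.904) and Snap25 (0.902), all 6 of them called lower. Gabra3 was most like Osbpl11 (0.926), Negr1 (0.911) and Scg2 (0.910), of which Negr1 was called higher. Gabrg3 was most like Plxna2 (0.943), Cadm1 (0.928) and Pogk (0.923), of which Plxna2 was called higher. Gabrb1 was most like Skiv2l2 (0.961), Hspa4 (0.942) and Gm12141 (0.939), none of them called.

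**Figure D5:**
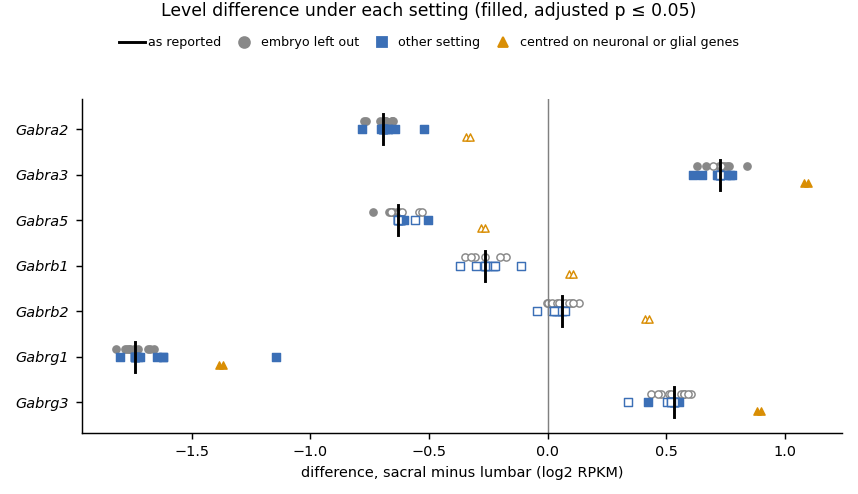
Sacral minus lumbar difference (horizontal axis, log2 RPKM) of each subunit gene as reported (black line) and under each alternative setting that gave it a value, filled where the adjusted p was at most 0.05. Gabrg1 stays between -1.82 and -1.15, filled throughout, and centring on neuronal or glial genes moves every gene to the right.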

How the data were processed

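RNA from whole DRG was amplified (Ovation RNA-Seq System v2), made into Nextera XT libraries and sequenced on a HiSeq2500. The authors aligned reads to mm9 with Subread, counted uniquely mapping reads per Ensembl gene with featureCounts, applied TMM scaling (edgeR 3.12.1) and voom (limma 3.26.9), and deposited log2 RPKM values. The median over genes with a value was identical in all 20 libraries. Values were whole multiples of 1 read (within 0.05 read) for 98.27%, which gave the reads per gene; blanks were set to 0.5 reads.

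Limma 3.58.1 was fitted to the log2 values of 14529 genes reaching a mean of 1 RPKM in a group, with 4 group means, the embryo as block (duplicateCorrelation, consensus correlation 0.342) and Benjamini-Hochberg adjustment over all genes. The pairs are libraries of 1 embryo; their deviations correlated from -0.166 to 0.677. The named genes were the 7 members, the called genes of each list (or its smallest p) and the 3 most correlated genes; other genes named were chosen after their values were seen. Some items of the planned lists are not reported here, so shares cover the genes named beside them and not whole subunit classes. Members and lists were chosen with earlier results of these data known. Tests were checked on simulated data. Alternatives changed block, weights, filter, pseudocount, scaling, covariate, test and embryos. Intervals are for the mean difference and rest on the variation between these embryos. They are not ranges of single embryos, which can lie outside them.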

Additional observations from a re-analysis of the deposited data

Results flagged for a closer look

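Single libraries stood apart from the other 4 of their group by Dixon's criterion (gap over range above 0.71) in 5 of 28 combinations of gene and group. Chance gives about 1 in 20 for a single combination. All 5 came from the lumbar library of M5 or the sacral library of F7, so they are not independent and cannot be counted against that rate. The lumbar male library of M5 was low for Gabra3 (1.05 log2 RPKM), Gabrb1 (-1.57) and Gabrb2 (-1.14), and the sacral female library of F7 was low for Gabra3 (1.56) and Gabrb1 (-2.15). The mitochondrial rRNA share of these libraries was 61.05% and 44.73%, the former the highest of the 20; the part of this share in the low values was not tested.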

How the results depend on the processing

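The Gabrg1 difference kept its direction and its call under all 23 alternatives. Gabra2 lost its call under 2 of 23, Gabra3 under 4 and Gabra5 under 9, with no change of direction, and Gabrg3 gained a call under 4. For Gabrb1 only 18 alternatives gave a value, among them 6 of the 10 fits that left out 1 embryo, and for Gabrb2 21. In the rest Gabrb1 was below the filter. Gabrb1 changed sign when centred on pan-neuronal (0.0891) or glial genes (0.107), and Gabrb2 with quantile normalization (-0.0468) and without M5 (-0.0047; -0.0047 to 0.131 on leaving out each embryo), all uncalled.

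The count of genes called for level (978) was 154 without the replicate block on the embryo pairing, 3460 with sample weights, 1925 centred on pan-neuronal genes (1823 higher, 102 lower) and 2724 centred on glial genes (2675 higher, 49 lower). It ranged from 404 (without F10) to 1608 (without F8) on leaving out 1 embryo, with 600 without M1, 490 without M5, 557 without F3 and 519 without F7, and was 265 without M5 and F7. Glial centring and the joint removal of M5 and F7 were chosen after seeing the data. With the mitochondrial rRNA share as a covariate the counts for sex were 228 in lumbar and 705 in sacral DRG; leaving out 1 embryo gave 14 to 81 and 55 to 444. Sample weights and the recovered-read test used the block correlation of the reported fit. Gabrb1, at 16 to 155 reads, is the least precise of the 7.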
